A study of Mus musculus with 12 samples.

Results

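MicroRNAs that mark blood vessel and blood cells were followed through 12 small RNA libraries of sorted mouse embryonic cells, as a reading of cells other than endoderm in the sort. The members were taken by name from the count table: every mature arm and precursor of mir-126a, mir-126b, mir-451a, mir-451b, mir-144, mir-486a, mir-486b, mir-142a, mir-142b, mir-223 and mir-155. The name rule found 16 of the 1053 entries, 11 mature arms and 5 precursors, from 8 of the 11 hairpins. The hairpins mir-144, mir-451b and mir-142b were not analysed here. By role, 4 entries were endothelial, 7 erythroid and 5 leukocyte.

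The libraries came from 4 embryonic stages, with 3 libraries at each. At E8.5 the sorted cells were endoderm of whole embryos, labelled by Foxa2-CreER (Foxa2mcm), a tamoxifen-inducible Cre recombinase made from the Foxa2 locus, with tamoxifen given to the dam at E6.5. From E9.5 to E11.5 the sorted cells were pancreatic progenitors from the trunk, labelled by a Pdx1-Cre transgene, which is active in the pancreatic and duodenal endoderm. In all groups Cre switched on tdTomato from the Rosa26 locus, and tdTomato-positive cells were sorted into Trizol LS. Driver, dissected region and stage therefore changed together between E8.5 and E9.5, and their parts cannot be told apart. Foxa2 is also expressed in the notochord and floor plate, so Foxa2-CreER is not restricted to endoderm. The study's methods describe crosses in which males carried 1 mir-302 allele replaced by GFP, and the mir-302 genotype of each library is not known here. Library names carry 1 number per stage, and a batch marked by that number cannot be told apart from the stage. The study's overview of its samples lists 3 single embryos at each stage, with the fewest sorted cells at E9.5.

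In the embryo, endothelium lines the first vessels and touches the gut endoderm, including the region of the pancreatic buds, and primitive red cells from the yolk sac circulate from the time the heart begins to beat. miR-126a lies within Egfl7, a gene of endothelial cells, and is known for its part in vessel integrity and VEGF signalling. The cluster of miR-144 and miR-451a is driven by GATA1 in red cell precursors, and miR-451a is unusual in being cut by Argonaute 2 instead of Dicer. miR-486a lies in Ank1 and is known from red cells and muscle. miR-142a is made across blood lineages, miR-223 marks myeloid cells, and miR-155 is known from activated lymphocytes and macrophages.

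Sequences are shown for the mature members that could be matched to RefSeq (GRCm38.p6), 6 of 11, because each is the molecule whose reads are counted and no 2 of them share a seed. Capitals mark the seed, bases 2 to 8, by which a miRNA pairs with its targets. No other matched entry of the table had any of these 6 seeds.
mmu-miR-126a-3p: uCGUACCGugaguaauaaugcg
mmu-miR-126b-3p: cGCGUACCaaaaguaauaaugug
mmu-miR-451a: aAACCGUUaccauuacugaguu
mmu-miR-155-5p: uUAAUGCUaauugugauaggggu
mmu-miR-223-3p: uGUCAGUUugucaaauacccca
mmu-miR-142a-5p: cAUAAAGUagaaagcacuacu

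On GRCm38, miR-126a-3p is read from chr2:26591402-26591423 on the plus strand, and its hairpin gene Mir126a overlaps an annotated exon of Egfl7 on the same strand (GENCODE M21). miR-126b-3p is read from the opposite strand of that hairpin, at chr2:26591363-26591385. miR-451a lies at chr11:78073186-78073207 on the plus strand, between genes and next to Mir144. miR-142a-5p lies at chr11:87756867-87756887 and miR-155-5p at chr16:84714143-84714165, both on the plus strand. miR-223-3p lies at chrX:96242884-96242905 on the plus strand, in an exon of the noncoding gene F630028O10Rik. Mir486 spans chr8:23142555-23142682 within an intron of Ank1, plus strand. The mir-486a and mir-486b hairpins are near-identical, so how reads were divided between them, or counted under both, is uncertain.

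The libraries held 53996 to 1103383 reads on miRNA entries, with the fewest at E9.5 (53996 to 80075). Levels are given as CPM, reads scaled for depth with library sizes corrected by the TMM method. A count of 3, taken as the detection floor, was worth 32.0 to 75.9 CPM at E9.5 and 2.74 to 25.8 CPM at the other stages, counting error only. In every library the entries piled up around 29.5 to 140 reads, and below that level they were fewest at a low count of 1.80 to 20.7 reads. The pile-up lay at 85.1, 57.5 and 62.4 reads in the E9.5 libraries. Counts of members that stand alone in 1 or 2 libraries ran from 20 reads of miR-451a to 277 reads of miR-126a-5p. The 20 reads lay in E10.5 replicate 3, between the low point at 13.2 and the pile-up at 84.1 reads. The 277 reads lay in E11.5 replicate 2, above the pile-up at 140 reads. The part of the pile-up in such counts was not tested. Of the entries, 571 had enough reads to be tested, and 6 of the 16 members were among them: miR-126a-3p, miR-126a-5p, the precursor mir-126a, miR-486a-5p, miR-486b-5p and miR-155-5p. Of these, mir-126a and miR-126a-5p passed the filter on low counts only because of the E8.5 libraries, where they are high, so their fitted differences from E8.5 are descriptions.

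mmu-miR-126a-3p, the main arm of the endothelial hairpin, was high in all 3 Foxa2-CreER libraries and low in all 9 Pdx1-Cre libraries. At E8.5 it had 2177, 1749 and 1986 CPM, from 1259, 677 and 1374 reads. At E9.5 it had 32.5, 395 and 329 CPM (2, 37 and 13 reads), and at E10.5 236, 429.5 and 339 CPM (62, 50 and 87 reads). At E11.5 it had 34.2, 135 and 423 CPM (15, 148 and 352 reads). The lowest E8.5 library, at 1749 CPM, lay above the highest Pdx1-Cre library, at 429.5 CPM, while the ranges of the 3 later stages overlapped each other. By stage the order of the means was E8.5 (1971 ± 215 CPM), then E10.5 (335 ± 96.8), E9.5 (252 ± 193) and last E11.5 (198 ± 202, SD, n = 3 each), and the neighbours among the last 3 did not differ beyond their spread. In bulk libraries such as these, fewer cells of a type and less RNA per cell cannot be told apart.

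**Figure D1:**
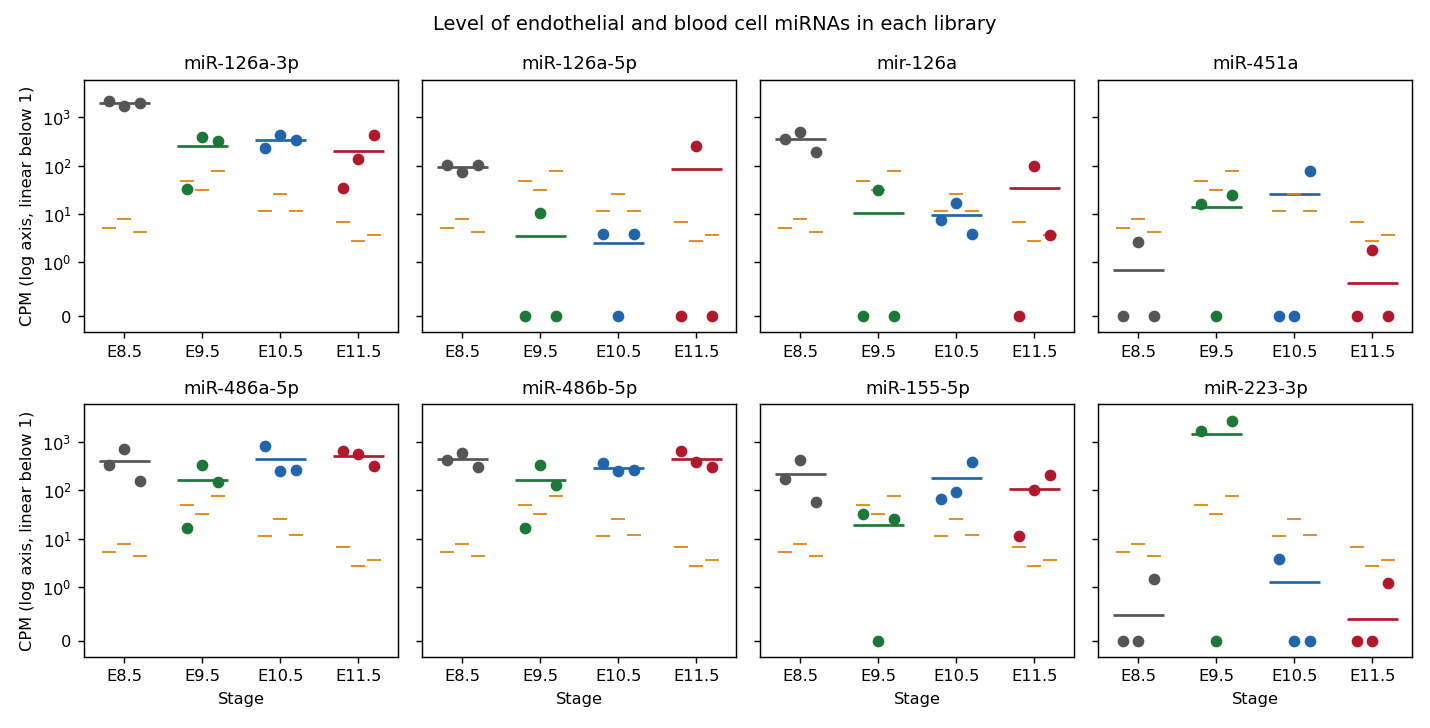
Level of 8 members in each library, in CPM on a log axis that is linear below 1, by embryonic stage with 3 libraries per stage. Points are libraries, coloured lines are stage means and orange dashes are the level of 3 reads in that library; miR-126a-3p stands at 1749 to 2177 CPM at E8.5 and at 32.5 to 429.5 CPM in the other 9 libraries, and miR-223-3p is high in 2 of the 3 E9.5 libraries.

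Over the members together, edgeR called 0 of the 6 tested in each of the 4 comparisons of stages. Among all entries tested, 5.6% were called for E9.5 against E8.5, 4.38% for E10.5 against E9.5, 0.35% for E11.5 against E10.5 and 11.6% for E11.5 against E8.5. At an unadjusted p under 0.05 edgeR gave 2, 0, 0 and 1 of the 6 in the same order, where it gave 20%, 18.2%, 10.7% and 23.3% of all entries, and DESeq2 called 0, 0, 0 and 1 at an adjusted p under 0.05, where it called 14.9%, 14%, 1.51% and 17.7% of the entries it gave an adjusted p. The libraries of both stages did not overlap for 4, 1, 0 and 2 of the 6 members, against 34.3%, 15.8%, 13.5% and 38.5% of all entries. The 4 members apart at E9.5 were miR-126a-3p, miR-126a-5p, mir-126a and miR-155-5p, and all 4 lay lower than at E8.5, as 27.5% of all entries did. The 1 member apart at E10.5 was miR-155-5p, higher than at E9.5 as were 8.76% of entries, and the 2 apart at E11.5 were miR-126a-3p and mir-126a, lower than at E8.5 as were 21.2%. Of these members, mir-126a and miR-126a-5p come from the hairpin of miR-126a-3p and passed the filter only through the E8.5 libraries. At E9.5 miR-155-5p had 0 to 2 reads, under the detection floor. The member counts for comparisons with E8.5, those at an unadjusted p included, are therefore descriptions.

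In the stage-by-stage tests miR-126a-3p did not pass the threshold. The log2 fold change of E9.5 against E8.5 was -2.96 (SE 1.10), with an adjusted p of 0.130 (edgeR quasi-likelihood test, Benjamini-Hochberg over the 571 entries). Between E9.5 and E10.5 it was 0.41 (SE 1.03, adjusted p 0.832 by edgeR), and between E10.5 and E11.5 it was -0.76 (SE 1.02, adjusted p 0.895 by edgeR). For E11.5 against E8.5 it was -3.31 (SE 1.10), with an edgeR adjusted p of 0.0542, just outside the threshold of 0.05. This last difference was called in 6 of 8 alternative fits that kept all libraries, DESeq2 among them (-3.40), and in 4 of 12 leave-one-out fits, those without any 1 of the E9.5 libraries or without E11.5 replicate 3. The share of all entries called in the 8 fits was 6.36 to 20.1%, and in the 12 it was 6.1 to 11.4%.

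A contrast chosen after the values were seen, the mean of the 3 Pdx1-Cre stages against E8.5 in the same fit, used all 12 libraries. miR-126a-3p was lower in the Pdx1-Cre libraries by this contrast, with a log2 fold change of -2.95 (SE 0.75, edgeR adjusted p 0.00733) and mean levels of 262 ± 159 CPM (SD, n = 9) and 1971 ± 215 CPM (SD, n = 3), a 7.54-fold difference in the means. The call was made in all 12 fits that left out 1 library (edgeR adjusted p 0.00326 to 0.04996) and in all 6 other fits with every library, in which 11.8 to 21.4% and 9.69 to 21.4% of all entries were called. These fits reuse the values from which the contrast was chosen. The contrast and its refits are therefore descriptions, and their adjusted p-values cannot be read as those of a planned test. Of all entries tested, 17.9% were called in this contrast in either direction and 11% as lower, and 11.6% had all 9 Pdx1-Cre libraries below all 3 E8.5 libraries, as miR-126a-3p did.

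The precursor had 361, 504 and 188 CPM at E8.5, from 209, 195 and 130 reads. Across the 9 Pdx1-Cre libraries it had 0 to 3 reads in 8 and 110 reads (100.6 CPM) in E11.5 replicate 2. Every Pdx1-Cre library was below every E8.5 library. The fitted log2 difference between the Pdx1-Cre stages and E8.5 was -4.45 (SE 1.42). Without the filter on low counts, which admitted the precursor through E8.5, it was -4.35 and missed the threshold (edgeR adjusted p 0.0532).

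miR-126a-5p, the less abundant arm, was also higher at E8.5 than in the later libraries, except in 1 of them. The other later libraries, with 0 to 1 read, are under the detection floor and give no order among their stages. It had 104, 72.3 and 101.2 CPM at E8.5, from 60, 28 and 70 reads. It had 0, 10.7 and 0 CPM at E9.5 and 3.81, 0 and 3.90 CPM at E10.5, or 0 to 1 read in each. At E11.5 it had 0, 253 and 0 CPM, and the 277 reads of replicate 2 gave the highest level of any library. The fitted difference of E9.5 against E8.5 was -4.31 (SE 2.70, edgeR adjusted p 0.340), that of E11.5 against E10.5 was 4.76 (SE 2.60, adjusted p 0.503), and that of E11.5 against E8.5 was -0.13 (SE 2.15, adjusted p 0.984). Without E11.5 replicate 2 these last values became -3.11 and -8.01. In the contrast of the Pdx1-Cre stages with E8.5 the arm had -3.11 (edgeR adjusted p 0.226), and without E11.5 replicate 2 it had -5.75.

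The make-up of the mir-126a reads shows the same library standing apart. The 3p arm held 75.2 to 100% of the reads of the hairpin in 11 libraries. In E11.5 replicate 2 the 3p arm held 27.7% of 535 reads, the 5p arm 51.8% and the precursor 20.6%. miR-126b-3p, from the opposite strand, had 1 read in all, in E10.5 replicate 3.

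**Figure D2:**
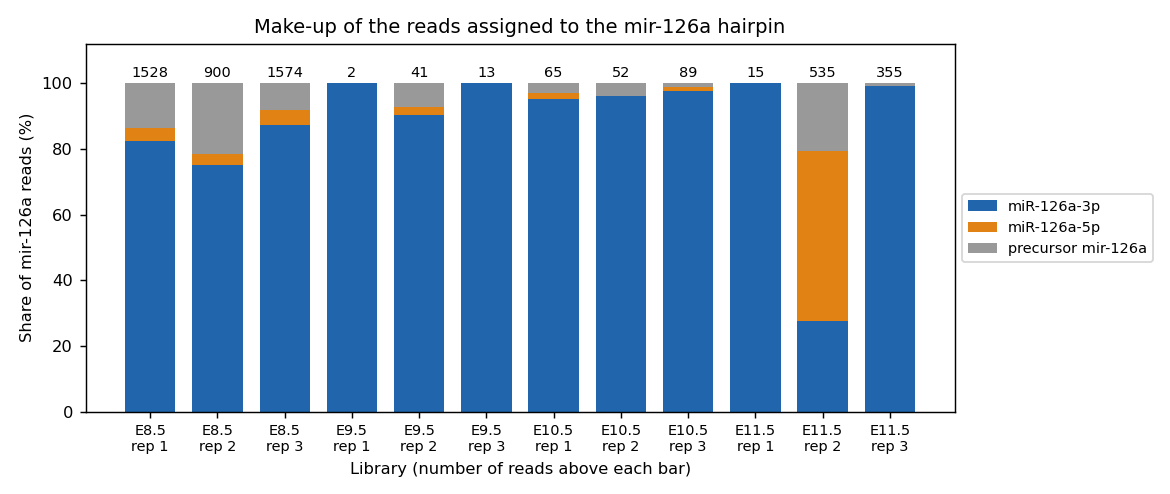
Share of the reads of the mir-126a hairpin, in percent, that were assigned to the 3p arm, the 5p arm and the precursor in each of the 12 libraries, with the number of reads above each bar. The 3p arm takes 75.2% or more in 11 libraries and 27.7% in E11.5 replicate 2, where 51.8% lies on the 5p arm.

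Among the erythroid members, miR-486a-5p and miR-486b-5p were present at every stage and miR-451a was close to absent. mmu-miR-486a-5p had 327, 710 and 158 CPM at E8.5 (189, 275 and 109 reads) and 16.2, 331 and 152 CPM at E9.5 (1, 31 and 6 reads). It had 834, 249 and 265 CPM at E10.5 (219, 29 and 68 reads) and 657, 570 and 326 CPM at E11.5 (288, 623 and 271 reads). The ranges of all 4 stages overlapped, with the lowest value in E9.5 replicate 1, the library with 2 reads of miR-126a-3p. The stage means ran in the order E11.5 (517 ± 171 CPM), E10.5 (449 ± 333), E8.5 (398 ± 283) and E9.5 (166 ± 158, SD, n = 3 each), and no neighbours in it differed beyond their spread.

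mmu-miR-486b-5p had 422, 594 and 302 CPM at E8.5 (244, 230 and 209 reads) and 16.2, 341.7 and 126.4 CPM at E9.5 (1, 32 and 5 reads). At E10.5 it had 362, 249 and 265 CPM (95, 29 and 68 reads), and at E11.5 it had 657, 377 and 305 CPM (288, 412 and 254 reads). The reads of the 2 arms went together: the ratio of miR-486a-5p to miR-486b-5p was 0.522 to 2.31, was 1 in 4 libraries and lay within 1.5-fold in 9 of 12. This ratio carries no information on the 2 genes, since the reads could be split between them or counted under both. Which of these happened was not tested.

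For miR-486a-5p the fitted log2 differences were -1.24 (SE 1.19), 1.42 (SE 1.195) and 0.20 (SE 1.15) over the successive stages and 0.38 (SE 1.15) for E11.5 against E8.5, with edgeR adjusted p-values of 0.520, 0.505, 0.990 and 0.917. For miR-486b-5p they were -1.42 (SE 1.19), 0.84 (SE 1.18), 0.61 (SE 1.16) and 0.02 (SE 1.15), with edgeR adjusted p-values of 0.464, 0.706, 0.901 and 0.990. Whether these changes differ from that of miR-126a-3p was not tested.

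mmu-miR-451a, the defining red cell member, had 0 reads in 7 libraries and 1 or 2 in 4. Its remaining 20 reads (77.9 CPM) lay in E10.5 replicate 3. It had too few reads to be tested. miR-486a-3p had 0, 54.2 and 0 CPM at E8.5 (0, 21 and 0 reads), 0, 0 and 25.3 CPM at E9.5 (0, 0 and 1 reads) and 3.81, 8.59 and 0 CPM at E10.5 (1, 1 and 0 reads). In the E11.5 libraries it had 25.1, 116 and 0 CPM (11, 127 and 0 reads), so that 1 library held most of its reads. miR-486b-3p also had 21 reads in E8.5 replicate 2 and 0 or 1 elsewhere, and the precursor mir-486b had 40 reads, all of them in E8.5 replicate 2. The precursor mir-486a had 0 to 8 reads.

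Among the leukocyte members, mmu-miR-155-5p was found at all stages, with its lowest mean at E9.5. It had 173, 421 and 56.4 CPM at E8.5 (100, 163 and 39 reads) and 32.5, 0 and 25.3 CPM at E9.5 (2, 0 and 1 reads). At E10.5 it had 64.7, 94.5 and 382 CPM (17, 11 and 98 reads), and at E11.5 it had 11.4, 100.6 and 205.6 CPM (5, 110 and 171 reads). Every E9.5 library was below every library of E8.5 and of E10.5, yet their 0 to 2 reads are under the detection floor, and the ranges of the other stages overlapped.

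The fitted log2 differences of miR-155-5p were -3.55 (SE 1.93) for E9.5 against E8.5, 3.29 (SE 1.91) for E10.5 against E9.5, -0.77 (SE 1.66) for E11.5 against E10.5 and -1.03 (SE 1.66) for E11.5 against E8.5. The edgeR adjusted p-values were 0.275, 0.349, 0.925 and 0.855, and none passed. Its precursor mir-155 had 0 to 13 reads in a library.

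miR-223-3p, the myeloid marker, had more than 1 read in 2 of the 12 libraries. E9.5 replicate 1 had 103 reads (1673 CPM) and E9.5 replicate 3 had 105 reads (2655 CPM), while the other 10 libraries, E9.5 replicate 2 included, had 0 or 1 read. The entry did not pass the filter on low counts, which asks for reads in 3 libraries. Without the filter it was called in E9.5 against E8.5 (edgeR adjusted p 4.08e-05) and in E10.5 against E9.5 (edgeR adjusted p 0.000478), although 1 of the 3 E9.5 libraries had no read. Of all entries, 4.08% and 4.75% were called in those fits. These were the 2 libraries with the fewest reads in all; the part of depth in the result was not tested. In the same 2 libraries the other leukocyte members were at or near 0, with 2 and 1 reads of miR-155-5p and none of miR-142a-5p or its precursor.

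miR-142a-5p, of the hairpin made across blood lineages, had 40 reads in E8.5 replicate 3 (57.8 CPM), 1 in E9.5 replicate 2 and none in the other 10 libraries. The precursor mir-142a had 33 reads in E8.5 replicate 1, 1 in E11.5 replicate 2 and none elsewhere. So the arm and its precursor were never found in the same library. The 3p arm of miR-142a was not analysed here, so these reads are a partial reading of the hairpin.

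The same endothelial reads were also set against the epithelial reads of their library, and this ratio was highest at E8.5. The 7 mature arms of miR-200a, miR-200b, miR-200c, miR-141 and miR-429, the epithelial set, served as the measure. The miR-126a arms came to 162 to 220 reads per 1000 epithelial reads at E8.5 and to 1.42 to 25.0 in the 9 Pdx1-Cre libraries, with no overlap. Epithelial reads themselves made up 9656 to 11232 CPM at E8.5 and 17170 to 39959 CPM in the Pdx1-Cre libraries, so this ratio moves with both terms. Those ranges do not overlap either, and dividing by them moves any entry toward a higher E8.5 ratio. By CPM, 11.6% of all entries tested had all 9 Pdx1-Cre libraries below all 3 E8.5 libraries. The share on the ratio scale was not computed, so the gap in the ratio is a description.

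The erythroid sum took in miR-451a (25 reads over all libraries), miR-486a-5p (2109) and miR-486b-5p (1867). It is thus almost wholly a miR-486 level, and reads counted under both miR-486 entries would enter it more than once. This sum came to 47.6 to 116 reads per 1000 epithelial reads at E8.5. At E9.5 it was 2.18 to 35.98, and the E10.5 (26.8 to 50.6) and E11.5 (15.8 to 54.5) libraries followed, overlapping with E8.5 at the last 2 stages. The leukocyte sum was 12.0 to 37.5 at E8.5 and 0.571 to 130 at E9.5, where miR-223-3p made up the high libraries. It was 2.90 to 16.8 in the E10.5 libraries and 0.473 to 5.18 in those of E11.5.

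**Figure D3:**
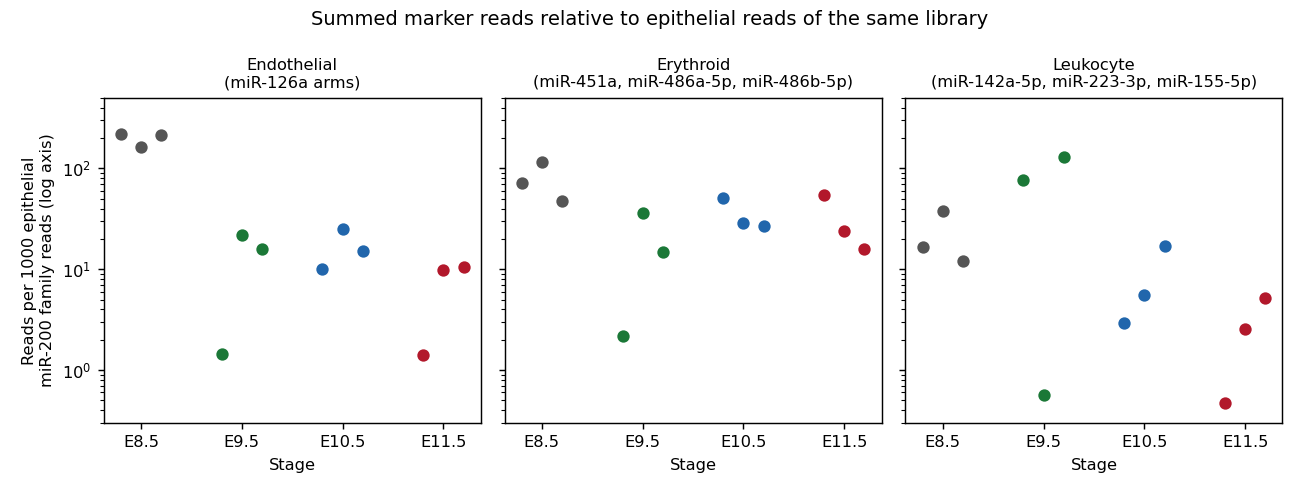
Summed reads of the endothelial, erythroid and leukocyte mature members per 1000 reads of the epithelial miR-200 set of the same library, on a log axis, by stage with 1 point per library. The endothelial sum is 162 to 220 at E8.5 and at most 25.0 elsewhere, while the erythroid sums of E10.5 and E11.5 and the leukocyte sums of E9.5 and E10.5 overlap those of E8.5. The erythroid sum is almost all reads of the miR-486 arms, which may be counted under both entries.

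The median log2 fold change of the 6 members was -3.26 for E9.5 against E8.5, where that of all entries was -0.84. Of the 6, mir-126a (-4.81) and miR-126a-5p (-4.31) passed the filter only through E8.5. The mir-126a hairpin gave 3 of the 6 rows and the miR-486 arms may share reads, so the medians are descriptions. For the later comparisons the medians of members and of all entries were 0.62 and 0.17 (E10.5 against E9.5), 0.41 and 0.07 (E11.5 against E10.5) and -0.58 and -0.07 (E11.5 against E8.5). Scaling by RLE in place of TMM moved the median of all entries by 0.64, -0.46, -0.22 and -0.14 in the same order of comparisons. Under RLE and under library size alone miR-126a-3p lay below E8.5 in both comparisons with that stage, while the sign of its E10.5 against E9.5 value turned under RLE (-0.12).

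**Figure D4:**
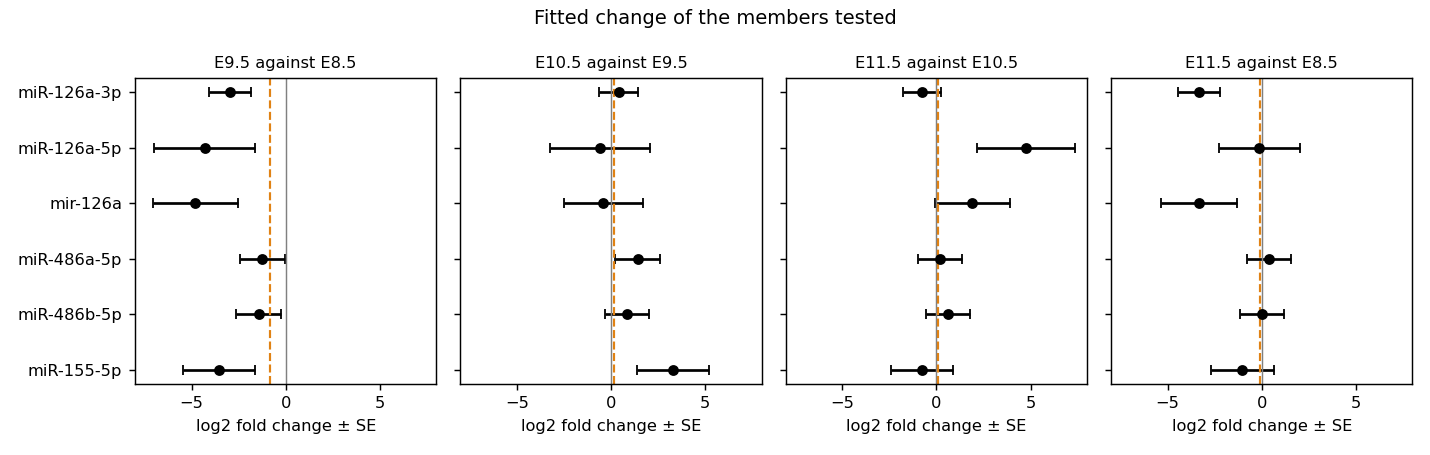
Fitted log2 fold change (later over earlier stage) of the 6 members tested, with bars of 1 SE, in the 4 comparisons of stages; the grey line marks 0 and the orange dashed line the median of all 571 entries. miR-126a-3p lies at -2.96 and -3.31 in the 2 comparisons with E8.5 and near 0 between the Pdx1-Cre stages, and no member passed an adjusted p of 0.05.

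Other miRNAs known from blood and vessel cells, which are less specific to them, were counted from a list: the arms of miR-146a, miR-146b, miR-342, miR-181a, miR-181b, miR-221, miR-222, miR-130a and miR-139. Of its 16 entries 11 were tested, and edgeR called 0 in any of the 4 comparisons. The medians were 1.08, -1.15, 1.26 and 0.35 in the order above. The most abundant, miR-342-3p, had 2170 ± 469 and 2772 ± 695 CPM at the first and last stage, E8.5 and E11.5, and 760 ± 609 (E9.5) and 1570 ± 1286 CPM (E10.5) between them (SD, n = 3 each). Its E9.5 libraries (379 to 1462 CPM) all lay below its E8.5 libraries (1818 to 2702 CPM), as for miR-126a-3p and 27.5% of all entries. By contrast, its E11.5 and E8.5 ranges overlapped, unlike those of miR-126a-3p.

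Markers of other tissues were counted beside the members. Over all entries, edgeR called 5.25% higher and 6.3% lower at E11.5 than at E8.5, 1.58% higher and 2.8% lower at E10.5 than at E9.5, and 1.58% lower at E9.5 than at E8.5. The epithelial set had 3 of 7 entries higher at E11.5 than at E8.5 and 0 called in the other 3 comparisons. Of 6 mesenchymal entries tested (miR-143, miR-145a, miR-199 and miR-214 arms), 1 was lower at E9.5 than at E8.5, 1 higher at E10.5 than at E9.5 and 2 higher at E11.5 than at E8.5. Those 2, miR-199a-5p and miR-214-3p, had 0 and 1 to 3 reads at E8.5 and passed the filter through later libraries, so their differences are descriptions. The E11.5 libraries of miR-143-3p (2827 to 5530 CPM) lay below its E8.5 libraries (5779 to 12573 CPM), as for 21.2% of all entries, without a call. miR-1a-3p, of heart and skeletal muscle, was the only entry of its list tested and was lower at E10.5 than at E9.5 and at E11.5 than at E8.5. It had 6282 to 26399 CPM at E8.5 and 280 to 3518 CPM at E10.5 and E11.5. miR-375-3p, of pancreatic endocrine and progenitor cells, was higher at E10.5 than at E9.5 and at E11.5 than at E8.5, and of 2 neural entries tested, 0 were called. The sum of the mesenchymal set was 1655 to 13763 CPM over the 12 libraries. The part of these cell types in the values of the members was not tested.

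The entries whose profile over the 12 libraries was closest to a member were found by the root mean square difference of log2(CPM + 1), each profile centred on its own mean. For miR-126a-3p these were miR-92b-3p (1.32), miR-93-5p (1.40) and miR-92a-3p (1.41), where the median over 361 candidates was 2.49. For miR-486a-5p they were the precursors mir-26a-1 (0.774), mir-541 (0.806) and mir-26a-2 (0.812), against a median of 2.06 over 360. For miR-155-5p they were miR-296-3p (1.49), the precursor mir-421 (1.51) and miR-466c-3p (1.60), against a median of 2.77. Like miR-126a-3p, both miR-93-5p (5813 to 8207 CPM at E8.5 and 568 to 4976 CPM in the Pdx1-Cre libraries) and miR-92a-3p (207145 to 259300 and 55723 to 97914 CPM) had all E8.5 libraries above all others. The groups of miR-92b-3p overlapped, at 5918 to 11452 and 991 to 6340 CPM. These distances are descriptions over libraries that share depth and stage.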

How the data were processed

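The authors deposited raw read counts per miRNA entry for all 12 libraries, made with COMPSRA (STAR, mm10) from NEXTflex small RNA libraries. Random bases of that kit were trimmed and not used to remove PCR duplicates. Reads of 17 to 35 bases (10 libraries) or 17 to 36 bases (2 libraries) were kept, per the file headers. Members and lists were chosen with earlier results of these data known.

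Here, edgeR 4.0.16 (R 4.3.3) was used with TMM scaling, filterByExpr (at least 10 counts in 3 libraries after scaling for depth, 15 in all), a quasi-likelihood fit of stage over all 12 libraries and Benjamini-Hochberg adjustment, calling at 0.05. The fit was tested on simulated counts with less spread than these libraries, whose common biological coefficient of variation was 1.19. That test cannot show how the fit performs at this spread. CPM were computed from TMM-scaled library sizes. Replicate numbers were not taken to pair libraries, since in no comparison did all 3 same-numbered pairs deviate together with a correlation above 0.1 (-0.13 to 0.13 in all, and 0.04 to 0.13 in E11.5 against E8.5, where all 3 were positive). No 2 libraries of a stage were the same library (chi-square of their counts per degree of freedom 41.5 to 137). Alternatives were RLE, library size alone, no filter, at least 10 counts in 6 libraries, DESeq2 1.42.0, only the compared stages, mature arms only, a replicate block, and leaving out each library. Each mature member with at least 10 counts in at least 3 libraries was given in every library, the others by their counts; the 3 nearest profiles were named. Sequences came from RefSeq (GRCm38.p6) and places from GENCODE M21. No columns of other samples were present.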

Additional observations from a re-analysis of the deposited data

How the results depend on the processing

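With all libraries kept, 157 recomputed log2 differences kept their direction and call, 6 gained a call and 8 changed sign. For E11.5 against E8.5, miR-126a-3p gained a call under library size alone (-3.46), at least 10 counts in 6 libraries (-3.43), DESeq2 (-3.40), only the 2 stages compared (-3.25), mature arms only (-3.33) and the replicate block (-3.93), each adding 1 called member. Without a filter 1 member, miR-223-3p, was called in E9.5 against E8.5 and in E10.5 against E9.5. The contrast of the Pdx1-Cre stages with E8.5, added after the data were seen, is another comparison. It called 2 members, miR-126a-3p (-2.95) and mir-126a (-4.45), where it called 17.9% of all entries. The contrast was chosen from these same values and the filter admitted mir-126a through E8.5, so both values are descriptions. That precursor was called in 4 of 12 leave-one-out fits, in which 11.8 to 21.4% of all entries were called. Signs turned for miR-126a-3p, E10.5 against E9.5 (RLE -0.12, DESeq2 -0.12), for miR-486b-5p, E11.5 against E8.5 (RLE -0.070, library size -0.054, 6 libraries -0.087, DESeq2 -0.070, Pdx1-Cre contrast -0.66), and for miR-486a-5p in that contrast (-0.23); the cause was not tested. Calls over all entries became, for E9.5 against E8.5 (32), 50 under RLE and 70 under DESeq2; for E10.5 against E9.5 (25), 50 without a filter, 63 under DESeq2 and 11 with 2 stages; for E11.5 against E10.5 (2), 5, 8 and 4 in the same settings and 1 for mature arms; and for E11.5 against E8.5 (66), 42 with 6 libraries, 106 with 2 stages and 102 in the added contrast. The replicate block gave 26, 22, 3 and 61 calls; 10 of 24 matches of a library were closest to its own number, 6 of 6 in E11.5 against E8.5; under it mir-126a (0.94) and miR-126a-5p (1.82) turned sign in E10.5 against E9.5. Leaving out 1 library gave 21 to 44, 7 to 42, 1 to 5 and 38 to 80 calls, and 0 to 1 called members in every comparison but E11.5 against E10.5 (0); for E9.5 these calls were of miR-223-3p, which then passed the filter through its 2 high libraries. Its ranges were, for E10.5 against E9.5, -0.014 to 0.72 (miR-126a-3p), -1.12 to 3.40 (miR-126a-5p) and -1.05 to 5.06 (mir-126a); for E11.5 against E10.5, -3.11 to 5.52 (miR-126a-5p), -2.08 to 2.73 (mir-126a), -1.53 to 0.44 (miR-155-5p) and -0.045 to 0.99 (miR-486a-5p); and for E11.5 against E8.5, -4.40 to -2.73 (miR-126a-3p), -8.01 to 0.62 (miR-126a-5p) and -0.20 to 0.34 (miR-486b-5p). Depth limits E9.5 most, where 3 reads are worth 32.0 to 75.9 CPM.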
